A study of Mus musculus with 19 samples.

Results

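The 38 genes described here are interferon-stimulated genes, taken by name from the 28692 Gene Expression rows that every lane of a CITE-seq study of mouse thymocytes shares. The rule that defines them uses names and no measured value, but the list was drawn up with earlier results of these data known. All 38 were found. By what their products do they were set in 5 groups, which are 5 signal and transcription factors (Irf1, Irf7, Irf9, Stat2 and Usp18), 5 RNA sensors (Ifih1, Ddx58, Dhx58, Ddx60 and Zbp1), 20 antiviral effectors (Isg15, Isg20, Ifit1, Ifit3, Ifit3b, Ifi27l2a, Oas1a, Oasl1, Oasl2, Mx1, Rsad2, Xaf1, Rtp4, Bst2, Ifi35, Trim30a, Cmpk2, Samd9l, Lgals3bp and Slfn5), 3 PARP and DTX proteins (Parp9, Parp14 and Dtx3l) and 5 GTPases (Gbp2, Gbp7, Ifi47, Igtp and Irgm1). Their level, and the share of cells in which they were found, was followed over maturation, over genotypes and over the cell types of the thymus.

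Interferons of type I and type III, made mainly by cells that sense foreign nucleic acid, and interferon gamma, made by activated lymphocytes, bind surface receptors whose JAK kinases phosphorylate STAT proteins. A complex that holds STAT2 and IRF9 binds the interferon-stimulated response element (ISRE), while other STAT dimers, formed mainly after interferon gamma, bind the gamma-activated site (GAS). In the thymus, type I interferon is known to be made at steady state by epithelial cells of the medulla, the region that CD4 and CD8 SP (single-positive) thymocytes enter after positive selection, and interferon-stimulated genes are known to be part of the late maturation program of SP cells.

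Thymocytes of 17 female mice aged 4 to 8 weeks were measured on 19 lanes. Wild-type (WT) C57BL/6 thymocytes came from 3 mice whose cells had been sorted as CD5+TCRβ+ and from 2 mice without a sort. The CD4-fated mice were AND (Rag1-/-, with a transgenic T cell receptor for a peptide on MHC class II; not sorted), OT-II (another such receptor, in Rag-sufficient mice; not sorted) and MHCI-/- (B2m-/-; sorted as CD5+TCRβ+). The CD8-fated mice were F5 (Rag1-/-, with a receptor for a peptide on MHC class I; not sorted), OT-I (another class I receptor, Rag-sufficient; not sorted) and MHCII-/- (H2-Ab1-/-; sorted as CD5+TCRβ+), and each of these 6 genotypes had 2 mice. The first experiment held mouse 1 of AND, F5 and sorted WT, the second mouse 2 of AND and F5, sorted WT mice 2 and 3 and all MHCI-/- and MHCII-/- mice, and the third the OT-I, OT-II and unsorted WT mice, so that AND and F5 have no unsorted WT mouse of their own experiments and sorted WT mouse 1 none of the MHC-deficient mice in its own. In Rag1-/- mice the transgene gives the only receptor and B cells do not form, while in the Rag-sufficient OT-I and OT-II mice cells may also carry receptors of their own.

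The lanes held 2550 to 9408 barcodes and 9893333 to 43303999 RNA UMIs (unique molecular identifiers, which count molecules), and 69228 of 85389 barcodes were kept. The median depth of kept cells ran from 1490.5 to 7174 UMIs over the lanes. Among 68568 distinct barcode sequences, 656 occurred in more than 1 lane, with at most 13 shared by any pair of lanes. B2m was at 46.3 and 48.5 counts per 1000000 UMIs (CPM) in the MHCI-/- mice and at 402 to 1255 CPM in all other mice. H2-Ab1 was at 8.90 and 8.87 CPM in the MHCII-/- mice, within the 4.49 to 17.6 CPM of sorted WT mice, so that the RNA does not check this label. In the third experiment the lane medians were 1541 and 1490.5 in WT unsorted mouse 5, 3141 in OT-I mouse 2 and 2121.5 in OT-II mouse 2, against 2804.5 to 7174 in the lanes of the other mice. Levels are 3′ UMI counts, which do not scale with transcript length.

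The DNA before the start sites is shown for members whose promoters differ in the elements named above. RefSeq start sites on build GRCm38.p6 could be matched for 30 of the 38 genes, and not for Usp18, Dhx58, Zbp1, Ifi27l2a, Mx1, Rtp4, Parp9 and Parp14. Within 250 bases before the start, on either strand, the ISRE core (a pair of GAAA copies with any 2 bases between them) was found in 15 of the 30 genes, against 2.98% of all 32851 promoters searched. These 15 are Stat2, Ddx60, Isg15, Ifit1, Ifit3, Ifit3b, Oas1a, Rsad2, Bst2, Trim30a, Slfn5, Gbp2, Gbp7, Igtp and Irgm1. The longer form, the core followed by CT, was found in 10 of the 30 against 0.222% of promoters, and the GAS core TTCNNNGAA was found in 6 of the 30 (Irf1, Isg20, Oas1a, Bst2, Gbp7 and Igtp) against 7.02%. The shares of all promoters count promoters, not genes, and some of the 30 genes have more than 1 promoter. Of their 35 promoters 15 held the ISRE core, 10 the longer form and 6 the GAS core. A match is a stretch of letters, not proof of a bound site. The 150 bases before the start of 6 genes follow, written 5′ to 3′ along the gene's own strand, with ISRE cores of either strand in capitals. Isg15 (chr4:156200819-156200968, minus strand) has 3 overlapping cores 78 to 57 bases before the start, Ifit1 (chr19:34640739-34640888, plus strand) and Bst2 (chr8:71537473-71537622, minus strand) have cores too, the GTPase genes Irgm1 (chr11:48871421-48871570, minus strand) and Igtp (chr11:58199406-58199555, plus strand) have theirs 30 to 15 and 34 to 25 bases before the start, and Irf7 (chr7:141266425-141266574, minus strand) has none in this window.
Isg15: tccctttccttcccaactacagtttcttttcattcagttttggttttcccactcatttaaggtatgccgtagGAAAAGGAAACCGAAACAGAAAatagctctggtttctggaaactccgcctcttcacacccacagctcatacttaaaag
Ifit1: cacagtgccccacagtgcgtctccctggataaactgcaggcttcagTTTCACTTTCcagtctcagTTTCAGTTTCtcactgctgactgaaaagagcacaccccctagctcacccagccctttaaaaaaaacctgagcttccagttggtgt
Bst2: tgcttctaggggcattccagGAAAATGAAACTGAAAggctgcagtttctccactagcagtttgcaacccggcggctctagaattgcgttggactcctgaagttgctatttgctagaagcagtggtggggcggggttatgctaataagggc
Irgm1: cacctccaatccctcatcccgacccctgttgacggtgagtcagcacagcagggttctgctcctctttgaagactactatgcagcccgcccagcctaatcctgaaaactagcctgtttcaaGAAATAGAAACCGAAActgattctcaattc
Igtp: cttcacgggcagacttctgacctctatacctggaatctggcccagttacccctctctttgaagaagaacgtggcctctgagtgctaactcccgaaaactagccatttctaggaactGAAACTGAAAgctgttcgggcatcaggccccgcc
Irf7: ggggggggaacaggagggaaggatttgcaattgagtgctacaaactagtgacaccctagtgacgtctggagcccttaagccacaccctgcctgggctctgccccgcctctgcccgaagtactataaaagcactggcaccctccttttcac

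The question of when in development these genes are used was addressed first in WT mice, where the sum of the 38 genes was, in each of the 5 mice, highest in the mature SP-like class among the T cell classes. Cells were clustered on RNA without any interferon gene, and clusters were named from fixed marker genes. In mature SP-like cells (with S1pr1, Klf2, Ccr7 and Il7r among the markers) the sum stood at 5452, 5904 and 6946 CPM in sorted and at 5052 and 6772 CPM in unsorted WT mice. It was 3002 to 4805 CPM in CD4 SP-like and 3362 to 3775 CPM in CD8 SP-like cells, 1101 to 1507 CPM in signaled DP-like cells (thymocytes named from RNA markers of a receptor signal, of which 29.3% fell in the CD4 gate and 3.23% in the CD8 gate described below) and 677 to 973 CPM in quiescent DP-like cells. The values of the 5 mice did not overlap among the mature SP-like, the signaled DP-like and the quiescent DP-like class. Within the mature SP-like class, 1938 of 1997 WT cells fell in the CD4 gate described below, which does not require that CD8 be absent. In WT mice the class thus stands for CD4-gated cells, and mature CD8 cells lie in the CD8 SP-like class.

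**Figure D1:**
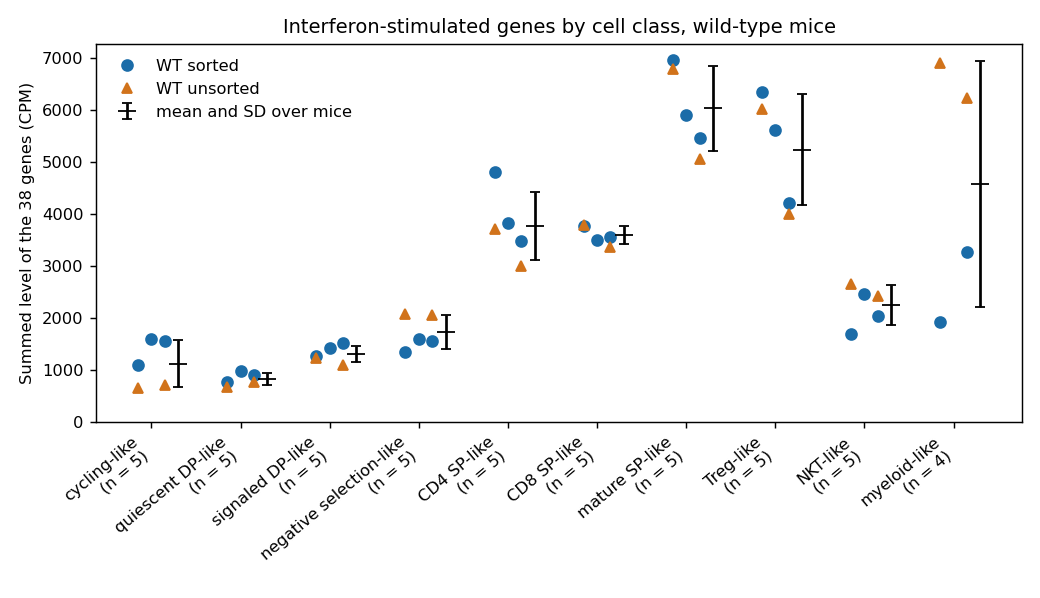
Summed level of the 38 genes (CPM, vertical axis) in cell classes of WT mice, with a circle for each sorted and a triangle for each unsorted mouse and bars for the mean and SD. The DN-like and B-like classes, with values from 2 WT mice each, are not drawn. The 5 mature SP-like points lie between 5052 and 6946 CPM, and all quiescent DP-like points lie below 1000 CPM.

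In other classes of WT mice the sum was 3988 to 6333 CPM in Treg-like cells (regulatory T cells), 1686 to 2644 CPM in NKT-like cells (natural killer T cells), 1346 to 2068 CPM in negative selection-like cells and 654 to 1585 CPM in cycling-like cells (n = 5 mice each). DN-like cells (double-negative thymocytes, a stage before DP cells) stood at 1232 and 1208 CPM in unsorted mice 4 and 5. In the same mice quiescent DP-like cells were lower, at 676.8 and 769.8 CPM, and signaled DP-like cells stood at 1229 and 1101 CPM. The sum thus did not rise at every step from the earliest stage. Myeloid-like cells, a mixed cluster in which erythrocyte-like markers scored higher than myeloid ones, ranged from 1923 to 6888 CPM over 4 mice and were above mature SP-like cells in both unsorted mice (6888 against 6772 CPM and 6220 against 5052 CPM), and B-like cells stood at 4562 and 5207 CPM in 2 mice. By the mean over WT mice, 21 of the 38 genes were highest in mature SP-like cells among 10 classes, 15 in myeloid-like cells, Irf1 in Treg-like and Gbp2 in CD4 SP-like cells. Neighbours in this order (mature SP-like with Treg-like, CD4 SP-like with CD8 SP-like) overlapped between mice.

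All 38 genes rose from signaled DP-like to mature SP-like cells of the 5 WT mice (edgeR quasi-likelihood test on UMIs summed per mouse and class, called at an adjusted p of 0.05), where 18.5% of the 10982 genes tested were called higher. The median change of the 38 was 2.47 on the log2 scale, with a range of 0.97 to 5.88, against -0.04 for all genes. For 32 of the 38 every mouse was higher in the mature class than every mouse in the signaled class, where 4.35% of all genes tested were, and the exceptions were Isg20, Bst2, Ifi35, Lgals3bp, Dtx3l and Gbp7. Fitted changes are larger than the ratios of the CPM, since the fit scales libraries by TMM and CPM by all UMIs. On total UMIs the median of all genes moves to -0.35 and the share of calls that are higher from 46.9% to 19.0%, with all 38 still called higher. The size of the change also depends on the clusters: the median was 1.27 with 31 genes called when interferon genes were kept in the clustering, and 1.64 with all 38 called without correction for the batch.

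Among the signal and transcription factors, Irf7, which drives transcription of type I interferon genes, was at 36.8, 34.5 and 42.7 CPM in signaled DP-like cells of sorted mice 1 to 3 and at 20.4 and 12.04 CPM in unsorted mice 4 and 5. In mature SP-like cells of the same mice Irf7 was at 204, 153, 146, 163 and 64.4 CPM. The lowest mature value, that of WT unsorted mouse 5, was above every signaled value. The change was 2.69 (SE 0.21, adjusted p = 8.412e-16). Irf9, the DNA-binding part of the STAT complex, went from 36.1, 43.2, 39.1, 36.7 and 53.0 CPM to 136, 146, 127, 139 and 128 CPM (2.05, SE 0.15, adjusted p = 1.013e-16). Irf1, a factor strongly induced by interferon gamma, went from 35.4 to 52.7 CPM over the mice to 82.8 to 124 CPM (1.64, SE 0.14, adjusted p = 1.16e-14). The other 2 of this group, Stat2 and Usp18, the protease that removes ISG15 from proteins, rose by 1.24 and 3.46.

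The RNA sensors recognize foreign nucleic acid in the cytoplasm. Zbp1, which binds Z-form nucleic acid, was at 66.1, 80.1, 69.1, 68.8 and 30.5 CPM in signaled DP-like cells of WT mice 1 to 5 and at 227, 195, 193, 241 and 92.0 CPM in mature SP-like cells (1.90, SE 0.18, adjusted p = 1.109e-12). The groups did not overlap, although WT unsorted mouse 5 was lowest in both. Ddx58, which encodes RIG-I, went from 31.6 to 41.7 CPM to 81.6 to 105 CPM (1.69, SE 0.16). Ddx60, a helicase, had the largest change of the 3 named sensors, from 6.51, 9.81, 8.18, 11.1 and 8.83 CPM to 61.4, 56.7, 61.3, 85.1 and 69.0 CPM (3.16, SE 0.25, adjusted p = 1.574e-15). Ifih1, which encodes MDA5, and Dhx58, which encodes LGP2, rose by 2.39 and 3.20.

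Antiviral effectors had the largest median change of the 5 groups (2.69, against 2.39 for sensors, 2.05 for factors, 1.73 for PARP and DTX proteins and 1.56 for GTPases). Ifi27l2a, which encodes a small hydrophobic interferon-induced protein, was at 216, 280, 281, 178 and 240 CPM in signaled DP-like and at 2493, 2356, 2136, 2326 and 2273 CPM in mature SP-like cells of mice 1 to 5. The 5 mature values lay close together and far above the signaled ones, 12.2-fold by the fit (3.61, SE 0.33, adjusted p = 1.009e-13). Ifi27l2a gave 102462 of the 340417 UMIs of the 38 genes in the gated SP cells of all mice described below, 30.1%, against 6.49% for Ifi47 and 5.93% for Isg15, and a sum over the 38 leans on it. Isg15, a ubiquitin-like modifier, was at 80.4, 65.2, 123, 83.8 and 21.7 CPM before and 447, 283, 263, 460 and 124 CPM after (2.41, SE 0.25, adjusted p = 1.296e-11). Ifit1, which binds viral RNA without a methylated cap, went from 28.3, 19.1, 29.1, 33.1 and 12.04 CPM to 318, 213, 186, 317 and 181 CPM, 12.7-fold (3.67, SE 0.21, adjusted p = 1.158e-20). Bst2, the tetherin that holds budding virions at the membrane, overlapped between stages because WT unsorted mouse 5 stood apart, at 9.63 CPM in signaled and 32.2 CPM in mature cells against 55.4 to 76.3 and 204 to 273 CPM in the other 4 mice, and it was called higher at 2.25 (SE 0.20). Rtp4, of the receptor transporter family, and Samd9l, a restriction factor of poxviruses, rose by 2.60 (SE 0.20) and 1.63 (SE 0.13). The largest fitted change was that of Ifit3b (5.88, chosen after its values were seen), from a mean of 0.535 to 25.9 CPM. It had only 7 UMIs in signaled DP-like cells over the 5 WT mice, so that the size of this change and its rank are uncertain. Ifit3 and Ifit3b are near-identical copies, as are Oas1a and its neighbour Oas1g, and how their reads were split between copies is uncertain.

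Of the PARP and DTX proteins, Parp14, an ADP-ribosyltransferase, went from 19.1 to 28.1 CPM over the mice to 84.1 to 173 CPM (2.53, SE 0.18). Dtx3l, a ubiquitin ligase, and Parp9, its partner, went up by 1.59 (SE 0.14) and 1.73 (SE 0.14). Dtx3l was highest in WT unsorted mouse 5 at each stage, at 73.1 and 169 CPM against at most 35.7 and 102 CPM in the others. Ifi47 and Igtp are immunity-related GTPases, a family that acts on vacuoles holding pathogens. Ifi47 was at 122, 136, 128, 102 and 83.5 CPM in signaled DP-like and at 384, 278, 255, 294 and 159 CPM in mature SP-like cells (1.56, SE 0.15, adjusted p = 3.173e-13), and Igtp went from 40.9 to 69.97 CPM to 73.6 to 174 CPM (1.49, SE 0.13). Gbp7, a guanylate-binding protein, had the smallest change of the 38 (0.97, SE 0.12, adjusted p = 2.254e-09), and its ranges of 39.98 to 71.4 and 65.4 to 107 CPM overlapped.

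**Figure D2:**
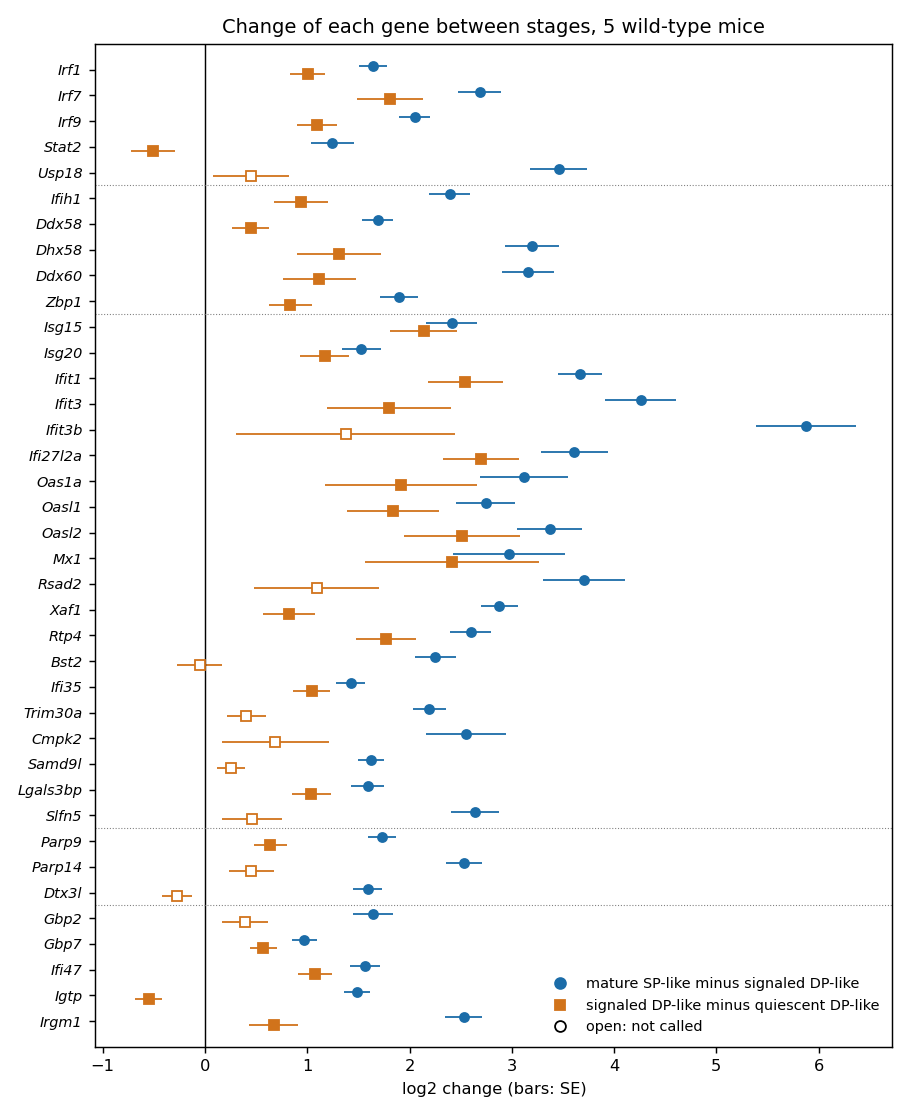
Fitted log2 change of each of the 38 genes in 5 WT mice with its SE, in circles for mature SP-like minus signaled DP-like and in squares for signaled DP-like minus quiescent DP-like cells, open where the change was not called, and ordered by role group. Every circle is filled and lies to the right of 0, while the squares are smaller for all genes but include Stat2 and Igtp to the left of 0.

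The earlier step held calls in both directions. From quiescent to signaled DP-like cells of WT mice, 25 of the 38 genes were called higher and 2 lower, with a median change of 1.02, where 25.2% of all genes were called higher and 23.1% lower. The 5 RNA sensors all rose, as did 13 of 20 effectors, 3 of 5 factors, 3 of 5 GTPases and Parp9 of the 3 PARP and DTX proteins. Ifi27l2a was at 44.4, 38.3, 98.6, 24.8 and 39.0 CPM in quiescent DP-like cells of mice 1 to 5, below every signaled value (2.70, SE 0.37, adjusted p = 2.151e-08). Ifit1 was at 1.04 to 10.7 CPM in quiescent cells (2.55, SE 0.36) and Isg15 at 11.5 to 21.3 CPM (2.14, SE 0.33), and both were higher in every signaled sample, Isg15 in WT unsorted mouse 5 by the least. Igtp went the other way, from 111, 133, 82.6, 73.5 and 67.6 CPM in quiescent to 69.97, 59.7, 59.1, 61.3 and 40.9 CPM in signaled cells (fell by 0.55, SE 0.14, adjusted p = 0.0005432), and Stat2 fell by 0.50 (adjusted p = 0.04738). Bst2 (-0.05), Dtx3l (-0.27), Samd9l (0.26) and Parp14 (0.45) did not pass the test. For 6 of the 38 genes every mouse was higher in the signaled than every mouse in the quiescent class, where 7.03% of all genes were. For Stat2 every mouse was lower, and the share of all genes of which this holds was not computed. The samples overlapped for the other 31 genes. Without WT unsorted mouse 4 the count called higher was 15.

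The rest of the pathway was read in the same fit, from lists of receptors, kinases and other factors (24 genes, 23 tested) and of other interferon-responsive genes (56 genes, 48 tested). From signaled DP-like to mature SP-like cells 45 of the 48 other responsive genes were called higher, with a median of 1.70, and Cd274, which encodes PD-L1, lower. Ms4a4b and Ms4a6b, membrane proteins of T cells, rose by 3.48 and 2.70, Shisa5 by 1.47 and the immunoproteasome subunit gene Psmb8 by 0.41. Of the receptor and kinase list 10 were called higher and 2 lower, where 21% of all genes tested were called lower. The repressor gene Irf2 rose by 0.81 and the kinase gene Jak1 by 0.27 (adjusted p = 0.00514), while Ptpn6, the phosphatase SHP-1, fell by 0.43 (adjusted p = 0.001947). Among receptor chains, Ifnar1 of the type I receptor was called higher (0.65), and Ifnar2, Ifngr1 and Ifngr2 were not called; these 4 were picked after their values were seen.

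Interferon RNA itself was almost absent from the cells sampled. Over all kept cells of 17 mice, Ifnb1, Ifne, Ifnl3 and the 13 Ifna genes listed had no UMI, Ifnab had 11, Ifnk 5, Ifnz 22, Ifnl2 1 and Ifng 88 UMIs. Of the 88 Ifng UMIs, 55 were in NKT-like cells (5.55 CPM over 957 cells), 22 in negative selection-like cells and none in mature SP-like cells. No cluster was named epithelial-like, so that these counts say nothing of interferon made by epithelium.

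Maturation was also followed by surface protein, in cells that RNA clusters admitted. CD4-gated cells were those in signaled DP-like or SP-like clusters with over 0.75 of their CD4 plus CD8a antibody UMIs from CD4, and CD8-gated cells had under 0.25. Within each lane and gate they were cut into quartiles of a protein maturation index, the log antibody UMIs of a surface protein that rises as SP cells mature minus those of CD24, which falls. A quartile held 157 to 364 CD4-gated or 48 to 107 CD8-gated cells of a WT mouse. In the CD4 gate the sum of the 38 genes was 2708 to 3570 CPM in quartile 1 and 5268 to 6642 CPM in quartile 4 of WT mice, a ratio of 1.78 to 2.09. MHCI-/- mice went from 3112 to 6768 CPM and from 2809 to 5550 CPM, OT-II mice from 2864 to 4215 CPM and from 3962 to 6594 CPM, and AND mice from 1542 to 2070 CPM and from 1209 to 2032 CPM. Each of the 11 mice was higher in quartile 4, and both AND mice in quartile 4 were below every other mouse in quartile 1. The WT means over quartiles 1 to 4 were 3042, 3100, 4818 and 5871 CPM.

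**Figure D3:**
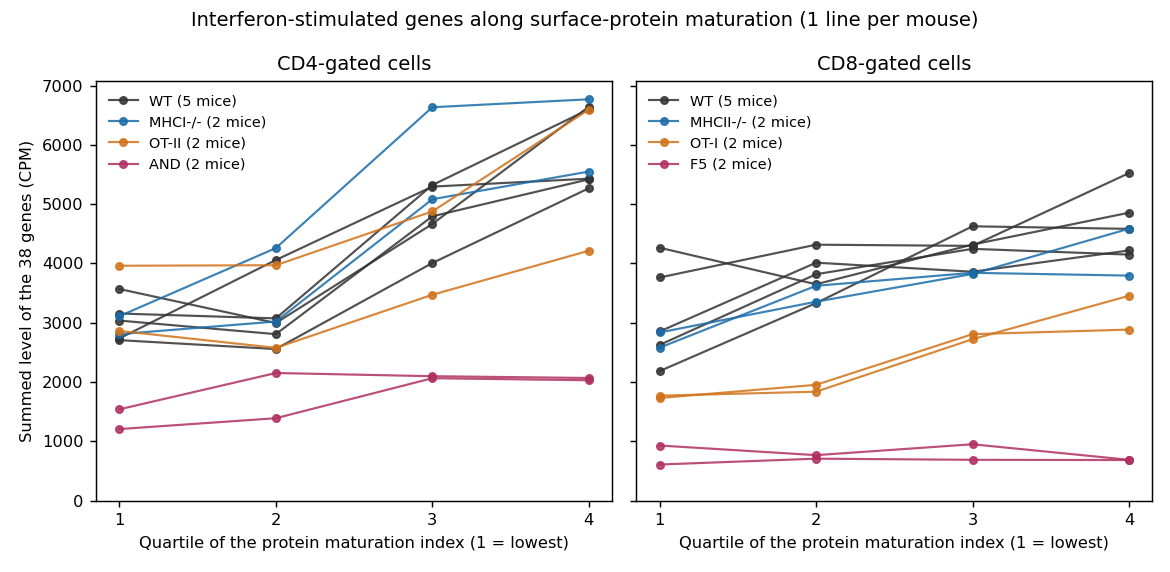
Summed level of the 38 genes (CPM) against the quartile of the protein maturation index, with 1 line per mouse and colours for genotypes, in CD4-gated cells on the left and CD8-gated cells on the right. Lines of WT mice end higher in quartile 4 than in quartile 1 in both gates, though several fall between neighbouring quartiles. The F5 lines stay between 611 and 953 CPM in every quartile.

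In CD4-gated cells 37 of the 38 genes were called higher in quartile 4 than in quartile 1 over 11 mice with mouse as a block, against 19.8% of 9032 genes, and Gbp2 (0.04) was the exception. The median change was 0.70. On total UMIs 32 were called, the median of all genes was -0.24, and 17.8% rather than 52.8% of calls were higher. Ifi27l2a had the largest change of the named genes, from 656 to 2508 CPM in WT unsorted mouse 4 and from 135 to 734 CPM in AND mouse 2, for example, and 655 ± 301 to 2218 ± 918 CPM over the mice (mean ± SD, n = 11; 2.00, SE 0.06, adjusted p = 6.935e-29). Of the 38 only Ifit3b (2.92) and Ifit3 (2.86), both chosen after their values were seen, changed by more. Irf7 rose by 1.24 (SE 0.07), from 35.5 to 107 CPM to 44.7 to 192 CPM over the mice, and Ifit1 by 1.12 (SE 0.10). Ddx60 rose by 0.87, Rtp4 by 0.81, Bst2 by 0.70, Parp14 by 0.68, Dtx3l by 0.67, Samd9l by 0.62, Ifi47 by 0.59, Parp9 by 0.57, Zbp1 by 0.56, Igtp by 0.53, Irf9 by 0.46, Isg15 and Ddx58 by 0.40, Irf1 by 0.37 and Gbp7 by 0.33. Among receptors Ifngr1 rose by 0.84 and Ifngr2 fell by 0.70, while Socs1, an inhibitor of JAK kinases, fell by 0.87.

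Of the 35 genes that passed the low-count filter in CD8-gated cells (not Oas1a, Mx1 and Cmpk2), 27 were called higher in quartile 4 over 11 mice, against 13.3% of 7737 genes, with a median of 0.41. Without MHCII-/- mouse 2 there were 20 calls and with WT mice only 14, and on total UMIs 17, where the median of all genes was -0.16 and 21.8% rather than 52.6% of calls were higher. Stat2, Usp18, Ifih1, Ddx60, Oasl1, Oasl2, Rsad2 and Slfn5 did not pass. Ifi27l2a went from a mean of 426 to 1235 CPM (1.70, SE 0.07, adjusted p = 4.169e-28), Irf7 rose by 0.84 (SE 0.10), Rtp4 by 0.66, Parp14 by 0.58, Irf1 by 0.51 and Ifit1 by 0.45, and the other named genes tested rose by 0.27 to 0.45 except Ddx60 (0.34, adjusted p = 0.1027). The sum went from 3764 to 5524, 2854 to 4220, 2628 to 4150, 4266 to 4856 and 2186 to 4584 CPM in WT mice 1 to 5, from 2581 to 3796 and 2837 to 4586 CPM in MHCII-/- mice and from 1733 to 2886 and 1772 to 3456 CPM in OT-I mice. In F5 mice it went from 611 to 687 CPM and from 932 to 691 CPM. Within F5 mice alone no gene of the 35 was called in quartile 4 against quartile 1 (edgeR; 5 had an unadjusted p under 0.05, DESeq2 called 0), where 3.97% of all genes were called. The markers of mature SP-like cells summed to 1208 to 1345 CPM in quartile 1 of F5 against 478 to 911 CPM in WT mice, and by the genotype-by-quartile term described next S1pr1 (-1.49, adjusted p = 5.741e-06) and Klf2 (-0.64, adjusted p = 0.0008457) rose less in F5 and Il7r (1.90, adjusted p = 0.01106) more. The median UMIs per cell went from 2603 to 6500 in quartile 1 to 3616 to 10229 in quartile 4 over the WT mice, higher in quartile 4 of each, and from 5362 to 4994 and from 4264 to 4315 in the F5 mice. The part of these in the F5 result was not tested.

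Within-genotype calls in the other mice, each on 2 mice, were 35 of 38 in MHCI-/- (12.2% of all genes called higher), 10 in AND (7.79%) and 6 in OT-II (2.5%) in the CD4 gate, and 20 of 35 in MHCII-/- (8.49%) and 13 in OT-I (5.64%) in the CD8 gate. Within the 5 WT mice they were 36 of 38 (15.4%) and 13 of 35 (7.81%). DESeq2 called fewer in each, 29 in MHCI-/-, 7 in AND, 2 in OT-II, 6 in MHCII-/- and 8 in OT-I mice, and 34 and 8 in WT mice. Counts of calls do not show a difference between genotypes, which was tested as the change in a genotype minus that in WT mice. By that test 2 genes rose less in AND (Ifih1 by -1.74 and Isg15 by -0.83, where 1.1% of genes were called lower), 3 less in OT-II (Ifit1, Ifit3 and Ifi27l2a, where 1.65% were), 2 less in F5 (Isg20 and Ifit3, 0.944%) and 1 more in OT-I (Xaf1, 0.0905% called higher). No member differed in MHCI-/- (2 with an unadjusted p under 0.05; 0% of genes called) or MHCII-/- (5 with an unadjusted p under 0.05; 0.0388% called), and DESeq2 called 0 in both. For AND, OT-II, F5 and OT-I DESeq2 called 1, 1, 0 and 0. These differences share the WT mice, and F5 mice had 0 and 9 UMIs of Ifit3 in quartile 1 and 0 and 1 in quartile 4, so that its value is uncertain. On total UMIs the share of within-genotype calls that are higher fell in every group, from 53.97% to 73.62% down to 19.79% to 49.83%, and the counts of members were 30, 8, 2, 13 and 11 in the order above, with 2 called lower in AND mice.

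The 2 gates were compared in quartile 4 of the 5 WT mice. Quartiles were cut within each gate, so quartile 4 need not be the same stage in both. The mature SP-like markers summed to 2012 to 2335 CPM in the CD4 and 1458 to 2073 CPM in the CD8 gate. The B-like markers, in the same order, summed to 106 to 152 and 232 to 306 CPM. For the NKT-like markers these sums were 4.85 to 14.2 and 24.6 to 55.5 CPM, with Zbtb16 at 0 in both gates. The median UMIs per cell were 2683 to 6905 and 3616 to 10229, higher in the CD8 gate of each mouse. The part of these in the result was not tested. In CD4-gated cells 15 of 36 genes tested were higher, against 9.12% of all genes, and Lgals3bp was lower (fell by 0.45), where 9.9% of genes were lower. DESeq2 called 6 higher, and without WT unsorted mouse 4 there were 8. Ifi27l2a was at 2649, 2364, 2334, 2508 and 2803 CPM in CD4-gated and 1900, 1420, 1556, 1630 and 2146 CPM in CD8-gated cells of mice 1 to 5, higher in each mouse (0.56, SE 0.05, adjusted p = 1.584e-20). Irf9 was at 106 to 130 and 68.5 to 88.9 CPM, without overlap (0.57, SE 0.12, adjusted p = 4.727e-05), and Zbp1, Parp14, Ddx60, Ifit1 and Irf7 were also called, by 0.27 to 0.50. Irf1, Ddx58, Isg15, Rtp4, Bst2, Samd9l, Parp9, Dtx3l and the 5 GTPases were not, with changes from -0.14 to 0.20 among those named. The slope itself differed between gates for 7 of 35 genes, which rose more in CD4-gated cells (2.25% of all genes did): Ifi27l2a by 0.49 (SE 0.09, adjusted p = 9.1e-05), Ifit1 by 0.91 (adjusted p = 0.001917), Usp18, Ifih1, Ifit3, Xaf1 and Irgm1, and DESeq2 called 2. The signaled DP-like markers went from 1863 to 3651 CPM in quartile 1 to 577 to 738 CPM in quartile 4 of the CD4 gate. In the CD8 gate they went from 654 to 797 CPM to 260 to 446 CPM, and their part in the slopes was not tested.

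Genotypes were then compared over all gated SP cells with the WT mice of the same sort. The fit for each gate held group means and no term for experiment or batch. It took in every mouse with at least 20 cells in that gate, also mice of the other fate. In MHCI-/- and OT-II mice none of the 38 genes differed from WT in the CD4 gate, and in MHCII-/- and OT-I mice none did in the CD8 gate (edgeR, with 1, 1, 0 and 19 genes at an unadjusted p under 0.05; DESeq2 called 0 in each), where 0.0576%, 0.221%, 0.0686% and 0.196% of all genes were called. The medians were 0.12, 0.03, -0.11 and -0.76. Ifi27l2a was at 1932 and 1415 CPM in MHCI-/- and 1415, 1399 and 1633 CPM in sorted WT mice, and at 850 and 2084 CPM in OT-II and 1376 and 1541 CPM in unsorted WT mice, and these values overlapped. In the CD8 gate it was at 947 and 1061 CPM in MHCII-/- against 1321, 1135 and 1222 CPM, and at 481 and 784 CPM in OT-I against 1156 and 1350 CPM (-0.95, SE 0.32, adjusted p = 0.5461). The sum in OT-I was 2353 and 2463 CPM, below the 4314 and 3788 CPM of both unsorted WT mice, and with 2 mice a group this is no sign that the genotypes are alike.

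**Figure D4:**
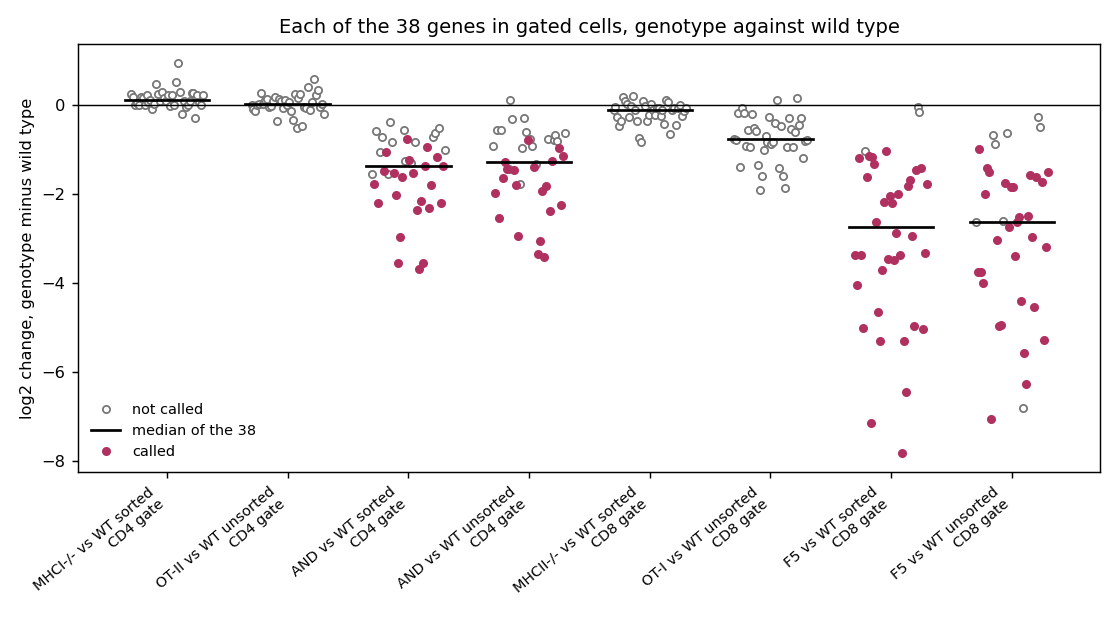
Fitted log2 change of each of the 38 genes in gated SP cells, genotype minus the WT mice named, with filled points for called genes and a line at the median of the 38. AND and F5 medians lie between -1.27 and -2.75 and the other 4 between -0.76 and 0.12, and the point for Oas1a in F5, at 0 UMIs in both mice, is a fitted value and no bound.

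F5 mice stood apart. In the CD8 gate 35 of the 38 genes were lower than in sorted WT mice (2.99% of all genes were lower), with a median of -2.75, and Stat2, Slfn5 and Dtx3l were not called. Against unsorted WT mice 30 were lower (2.78% of genes; median -2.62). On total UMIs 34 were lower than in sorted mice, with the median of all genes at 0.18 and 46.7% rather than 24.5% of calls higher. These comparisons were added after the data were seen. Against sorted mice the sort, and against unsorted mice the experiment, cannot be told apart from the genotype, as Rag1 deficiency and the receptor cannot be from each other. Without F5 mouse 1 the counts were 20 and 14. The gated cells came from different clusters: mature SP-like cells made up 30.8% and 89.8% of CD8-gated cells in F5 mice and at most 6.72% in a WT mouse, where CD8 SP-like cells made up 80.7% to 93.3%. Within CD8 SP-like cells of any gate the sum was 652.5 and 1395 CPM in F5 and 3362 to 3775 CPM in WT mice, and in mature SP-like cells of F5 mice it was 728.5 and 791.9 CPM. Lower values were not limited to SP cells. Myeloid-like cells were at 594.2 and 628.5 CPM in F5 and 1923 to 6888 CPM in WT mice. Signaled DP-like cells were at 624.1 and 698.7 against 1101 to 1507 CPM. Quiescent DP-like cells of F5 mice, at 824.5 and 897.1 CPM, lay within the WT range of 676.8 to 972.8 CPM.

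Ifi27l2a was at 6.17 and 13.0 CPM in the F5 mice and at 1321, 1135 and 1222 CPM in sorted and 1156 and 1350 CPM in unsorted WT mice (fell by 7.16 against sorted, SE 0.42, adjusted p = 4.988e-06). Rtp4 was at 3.99 and 6.52 CPM against 150, 149 and 141 CPM (fell by 4.97, SE 0.33, adjusted p = 1.481e-05), and Ifit1 at 0.36 and 11.4 CPM against 186, 121 and 85.6 CPM (fell by 4.65). Every F5 value of these 3 genes lay far below every WT value. Isg15 was at 12.3 and 35.1 CPM against 304, 193 and 218 CPM (fell by 3.48, SE 0.51, adjusted p = 0.002312), Irf7 at 8.71 and 15.5 CPM against 135, 111 and 112 CPM (fell by 3.46, SE 0.36, adjusted p = 0.0002077) and Bst2 at 15.2 and 28.9 CPM against 222, 188 and 207 CPM (fell by 3.38, adjusted p = 0.01256). The group medians, whose difference was not tested, ran from -3.43 in effectors (19 of 20 called) to -1.60 in GTPases (5 of 5).

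Irf1, which fell by the least of the 3 factors named, was at 60.2 and 52.2 CPM against 117, 95.3 and 94.3 CPM (fell by 1.03), Zbp1 fell by 1.78, Ddx58 by 1.18, Samd9l by 1.46, Ifi47 by 1.32, Gbp7 by 1.15, Igtp by 2.17, Irf9 by 2.04, Parp14 by 1.83 and Parp9 by 1.69, and Ddx60 by 3.36. Oas1a had 0 UMIs in both F5 mice against 52 in sorted and 13 in unsorted WT mice, at least 13.7-fold and at least 8.22-fold lower by a floor of 3 counts over the group. Oasl1, Oasl2, Mx1 and Cmpk2 had 1 to 3 UMIs in F5 mice, and the median of the 38 is the same with Oas1a at its bound.

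Of the other interferon-responsive genes 25 of 45 tested were lower in F5 than in sorted WT mice and none higher, Ly6a by 4.13 (picked after its value was seen), and Ms4a4b, Shisa5, Psmb8 and Ms4a6b were not called. Socs1 fell by 1.19. Ifnar1 (0.20), Ifnar2, Ifngr1, Jak1, Irf2 and Ptpn6 did not pass the test.

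The maturation markers of F5 cells did not follow the same order. In quartile 4 of the CD8 gate S1pr1 was at 303 and 361 CPM in F5 against 184 to 479 CPM in WT mice, and Klf2 at 1490 and 1300 against 338 to 822 CPM, while Il7r was at 108 and 10.2 against 138 to 195 CPM. The 5 markers of mature SP-like cells summed to 2191 to 2556 CPM in F5 and 1458 to 2073 CPM in WT mice. The 5 markers of gamma-delta T-like cells summed to 295 to 333 CPM in F5 with Sox13 at 0, to 312 to 369 CPM in OT-I, and to 1.99 to 37.4 CPM in WT mice. The B-like markers summed to 414 to 423 CPM in F5 and 232 to 306 CPM in WT mice, with Cd79a and Ms4a1 among those at 0 in F5. Their part in the result was not tested.

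AND mice were lower as well. In the CD4 gate 23 of the 38 genes were lower than in sorted WT mice (1.36% of all genes; median -1.36) and 20 lower and none higher than in unsorted ones (2.81% and 1.78%; median -1.27), with the same limits of sort and experiment, and without AND mouse 2 only 2 genes and without AND mouse 1 only 6 were called against sorted WT; without WT sorted mouse 1 it was 15. Against unsorted WT mice 5 were lower when AND mouse 1 was left out, and 5 when AND mouse 2 was. The fit had no term for the experiment, although AND and sorted WT mice shared the first and the second experiment. Ddx60 was at 9.07 and 9.50 CPM against 39.9, 40.2 and 48.6 CPM (fell by 2.21, SE 0.26, adjusted p = 0.0008231) and Ifit1 at 41.4 and 36.0 CPM against 202, 128 and 142 CPM (fell by 2.02, adjusted p = 0.002746). Rtp4 fell by 1.79, Igtp by 1.61, Parp14 by 1.36, Gbp7 by 1.04, Parp9 by 0.93 and Irf9 by 0.77. Ifi27l2a, at 548 and 472 CPM against 1415, 1399 and 1633 CPM, did not overlap but missed the threshold (-1.55, adjusted p = 0.05489), as did Irf7 (-1.25, adjusted p = 0.05149), and Irf1, Isg15, Bst2, Zbp1, Ddx58, Samd9l, Dtx3l and Ifi47 were not called. On total UMIs 23 were lower than in unsorted mice, with 20.4% rather than 38.7% of calls higher. Against unsorted WT mice Igtp missed the threshold (-0.97, adjusted p = 0.05126) and Dtx3l passed it (-1.64, adjusted p = 0.03055). In quartile 4 the markers of mature SP-like cells summed to 2413 to 2532 CPM in AND and 2012 to 2335 CPM in WT mice, Il7r was at 74.9 and 62.4 against 210 to 253 CPM, and gamma-delta T-like markers at 129 to 290 against 13.8 to 40.2 CPM. The 5 DN-like markers summed to 132 to 217 against 37.8 to 87.5 CPM and the B-like markers to 167 to 181 against 106 to 152 CPM, with Ms4a1 among those at 0 in AND, while Treg-like markers, at 66.6 to 98.1 against 104 to 182 CPM, were lower in AND. The median mitochondrial share was 6.54% and 5.97% in the AND mice and 4.48% to 5.13% in WT mice, without overlap. The lane of AND mouse 2 had 4484116 protein UMIs, against 9906949 to 34762051 in the other lanes. Of its barcodes 4320 passed the RNA filters and 1901 the protein filters too, against 2674 and 2544 in AND mouse 1. The gates, quartiles and protein levels of AND mouse 2 rest on these fewer cells. The part of all these in the AND result was not tested.

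The study compared CD4-fated with CD8-fated cells within equal units of an inferred developmental order. Here CD4-gated cells of CD4-fated mice were set against CD8-gated cells of CD8-fated mice. Fate and gate therefore cannot be told apart in this comparison. In quartile 4, with a covariate for how fate was set (Rag1-/- receptor transgenes in AND and F5, MHC deletion, or the OT transgenes), 13 of the 38 genes were higher in the 6 CD4-fated mice and none lower, where 4.61% of all genes were higher and 5.17% lower, and the median was 0.61. Ifi27l2a was at 662 and 734 CPM in AND, 3020 and 2409 in MHCI-/- and 1373 and 3548 in OT-II mice, and at 12.3 and 11.9 CPM in F5, 1218 and 1551 in MHCII-/- and 782 and 1354 in OT-I mice. The groups overlapped between families but not within a family (2.15, SE 0.54, adjusted p = 0.01488). Ddx60 (1.35, adjusted p = 0.0005009), Ifit1 (1.25, adjusted p = 0.009877), Irf7 (0.96, adjusted p = 0.001824), Irf9 (0.89, adjusted p = 0.001035) and Zbp1 (0.79, adjusted p = 0.002007) were higher too, with Usp18, Ifit3b, Oas1a, Oasl2, Rsad2, Slfn5 and Irgm1. Isg15 (0.90, adjusted p = 0.07093), Bst2 (0.65), Irf1 (0.22) and the PARP and DTX proteins were not. The count called higher was 12 without the AND and F5 mice, 14 within the second experiment and 0 within the third, which holds the OT-II and OT-I mice, and 1 without the family covariate. With mice of a family paired by number, which for AND and F5 pairs mice of 1 experiment, it was 17, and Ifi27l2a, Ddx60, Ifit1, Irf7, Irf9 and Zbp1 were called in both fits. In these samples the B-like markers summed to more on the CD8-fated side of each family, at 414 to 423 CPM in F5 against 167 to 181 CPM in AND, 243 to 283 CPM in MHCII-/- against 125 to 142 CPM in MHCI-/- and 339 to 382 CPM in OT-I against 94.2 to 160 CPM in OT-II mice, with Ms4a1 at 0 in all of these groups but OT-I. The gamma-delta T-like markers summed to 295 to 333 against 129 to 290 CPM, 8.84 to 21.3 against 18.4 to 26 CPM and 312 to 369 against 141 to 178 CPM in the same order. The cycling-like markers summed to 12.3 to 62.8 against 11.3 to 19.1, 88.4 to 89.1 against 15.1 to 33.1 and 127 to 203 against 24.9 to 47.1 CPM. The Treg-like markers summed to 179 to 232 against 66.6 to 98.1, 156 to 163 against 162 to 176 and 190 to 236 against 122 to 124 CPM. The NKT-like markers on the CD8-fated side summed to 27.1 to 64.8, 39.5 to 46.8 and 33.7 to 43.7 CPM in the same order. On the CD4-fated side they summed to 7.09 to 11.6, 6.75 to 13.2 and 3.25 to 3.36 CPM, with Zbtb16 at 0 in all of these groups. The mature SP-like markers summed to 2191 to 2556 against 2413 to 2532, 1575 to 1604 against 1948 to 2117 and 1635 to 2124 against 1856 to 1890 CPM. The part of all these in the result was not tested.

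Other T cell types of WT mice were set against mature SP-like cells. NKT-like cells were named by marker score, with Zbtb16 at 69.4 CPM against 0.039 CPM in the other classes of WT mice, while their 10 leading genes held Pdcd1 and Ikzf2 of other lists, and their median depth was 1.98 times that of their lanes. In these cells 32 of the 38 genes were lower and none higher (17.3% of all genes were lower), with a median of -1.28. Ifi27l2a had means of 636 and 2317 CPM (fell by 2.04, SE 0.31, adjusted p = 3.858e-07), Ifit1 of 49.3 and 243 CPM (fell by 2.45, SE 0.25) and Isg15 of 83.9 and 315 CPM (fell by 2.03, SE 0.29), while Gbp7, Stat2, Oas1a, Mx1, Cmpk2 and Lgals3bp did not pass. With clusters made without batch correction 3 were lower and 3 higher, so that the result rests on how the NKT-like cluster is drawn. In Treg-like cells 5 genes were lower (Ifit1 by 0.62, Rsad2 by 1.15, Xaf1 by 0.46, Lgals3bp by 0.63 and Slfn5 by 0.64), where 7.54% of all genes were, with a median of -0.39. This count was unstable, with 1 gene by DESeq2, 2 on total UMIs, 0 with clusters made without batch correction, 9 with doublets kept, 24 with no filter on low counts, 1 without WT sorted mouse 3 and 9 without WT unsorted mouse 4. Ifi27l2a (2122 and 2317 CPM), Irf1 (119.4 and 107 CPM) and Irf9 (122 and 135 CPM) did not pass the test. On total UMIs the median of all genes moved to 0.13 in the Treg-like and 0.14 in the NKT-like comparison, and the share of calls that are higher from 50.7% to 77.1% and from 52.8% to 70.05%. Gamma-delta T-like cells were too few in WT mice to test.

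The share of cells with a UMI was read after thinning every cell to 1500 UMIs and leaving out shallower ones. Ifi27l2a was found in a median of 83.3% of mature SP-like, 14.5% of signaled DP-like and 4.63% of quiescent DP-like cells over the 5 WT mice. For Isg15 these shares were 25.5%, 5.88% and 2.07%, for Ifit1 19.3%, 1.85% and 0.645%, for Rtp4 22.1%, 4.25% and 1.81%, and for Ifi47 33.3%, 15.5% and 9.68%. Igtp again had a higher share in quiescent (14.2%) than in signaled cells (7.59%), with 17.6% in mature cells. The shares in quiescent cells are an upper limit of what free RNA from other cells could give there, whose part was not tested.

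Single cells often held several of the 38 genes at once. Cells with at least 5 of them made up 55.2%, 49.8%, 46.8%, 59.4% and 36.8% of mature SP-like cells in WT mice 1 to 5, 5.04% to 8.28% of signaled DP-like and 0.703% to 2.58% of quiescent DP-like cells. WT mice 1 to 3 were sorted, and mouse 5 was lowest in the mature class. The median mature SP-like cell held 4 of the 38 genes (10th to 90th percentile 2 to 10, highest 29, 1978 cells), and the median signaled and quiescent DP-like cells 1. In quartile 4 of the CD4 gate the share with at least 5 was 35.1% to 54.5% in WT, 48.6% and 38.4% in MHCI-/-, 36.9% and 36.7% in OT-II and 11.2% and 8.33% in AND mice. In the CD8 gate it was 29.8% to 46.7% in WT, 35.1% and 42.3% in MHCII-/- and 26.3% and 25.6% in OT-I mice. In F5 mice it was 0 of 123 cells, which allows a share of up to 2.44% by a limit of 3 counts (2.95% by the exact 95% interval), and 1.49% (2 of 134 cells); these limits count cells, not mice. Cells with any of the 38 in quartile 4 were 57.7% and 66.4% in F5 against 97.9% to 100% in WT mice in the CD8 gate, and 85.5% and 82.5% in AND against 96.1% to 98.5% in WT mice in the CD4 gate.

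**Figure D5:**
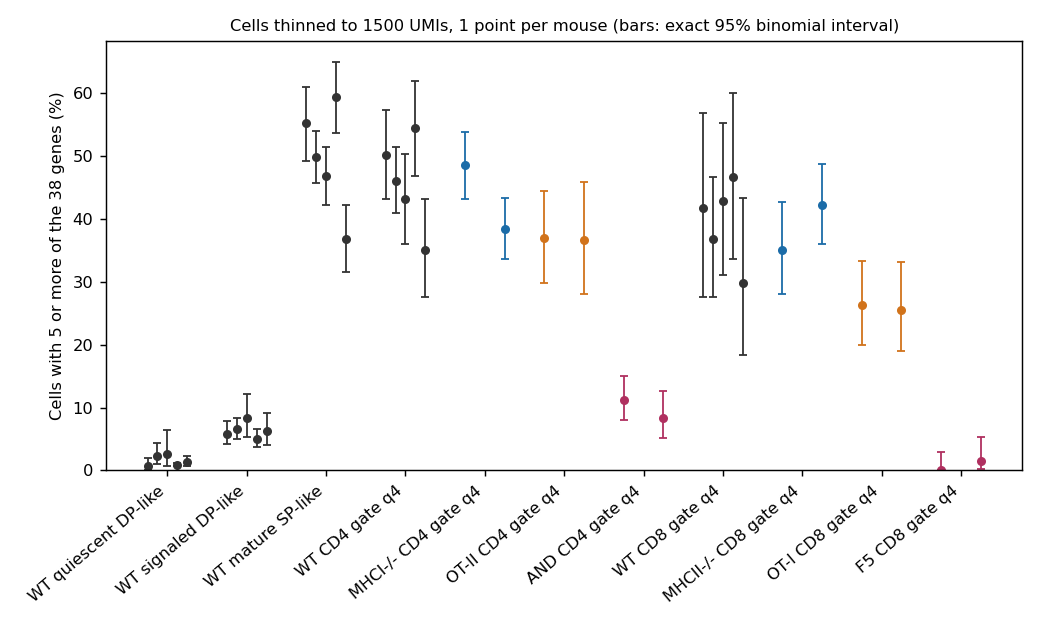
Share of cells (percent) with at least 5 of the 38 genes after thinning to 1500 UMIs, with 1 point per mouse and exact 95% binomial intervals that cover counting error only; q4 is quartile 4 of the protein index. AND points lie at 8.33% and 11.2% and F5 points at 0% and 1.49%, below every WT point in the same gate.

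Surface proteins whose genes respond to interferon were read from the 111 antibodies in the same quartiles. Sca-1 (Ly-6A/E) rose in CD4-gated cells from 47.4 ± 20.7 to 268.5 ± 138.7 per 10000 protein UMIs (mean ± SD, n = 11; 2.22, SE 0.30, adjusted p = 2.147e-05) in 11 of 11 mice, where 32.4% of antibodies were called. In quartile 4 it was 164 to 347 in WT, 451 and 445 in MHCI-/-, 180 and 373 in OT-II and 53.5 and 66.9 in AND mice, so that AND mice were lowest. In CD8-gated cells it went from 24.6 to 48.4 (0.76, SE 0.21, adjusted p = 0.01005) in 9 of 11 mice, where 28.8% of antibodies were called, and F5 mice, at 21.3 and 25.7 in quartile 1 and 17.6 and 23.2 in quartile 4, were not higher. Ly-6C rose by 0.56 (adjusted p = 0.001793) in the CD4 and 1.36 (adjusted p = 0.0181) in the CD8 gate. PD-L1 was not called in either (adjusted p = 0.3494 and 0.4188).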

How the data were processed

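Droplet CITE-seq matrices of 19 lanes were used, with 1 or 2 lanes for each of 17 mice. The authors deposited raw counts (whole UMIs, not normalized, for genes and antibodies) made with Cell Ranger (3.1.0 per the labels and the submitters' processing notes) on mm10 (GRCm38); reads of near-identical genes may be lost or split by that counting. Pooled matrices, which repeat lanes, were not used.

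Barcodes had to have 15% mitochondrial UMIs or less, 200 genes or more, 70 proteins or more and from 1000 to 10000 protein UMIs (72054 did), and 2826 (3.92%) were removed as doublets, the highest scores against simulated doublets at 0.8% per 1000 barcodes. Log-scaled RNA without any interferon gene (2000 variable genes, 30 components, scanpy 1.11.5) was corrected by Harmony over 4 batches and clustered (leidenalg 0.10.2, 20 neighbours, resolution 2) into 33 clusters. Of these, 7 stayed unnamed (16148 cells). The 4 batches are not the same as the experiments named above, and no batch term entered the main tests. Resolution, batch correction and naming limits (mean marker z above 0.5 with a marker among the 10 leading genes, or above 3) were set after 3 clusterings, from clusters and cells per class and not from the 38 genes.

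UMIs were summed per mouse and class, gate or quartile (at least 20 cells) and tested across all genes with edgeR 4.0.16 (R 4.3.3; quasi-likelihood, TMM, filterByExpr, Benjamini-Hochberg at 0.05). DESeq2 1.42.0 was an alternative. The mouse is the replicate, and lanes of a mouse were summed. SEs were computed from the log2 change and the F statistic. Comparisons of AND and F5 with WT mice, and those within genotypes, were added after the data were seen.

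On simulated counts with 200 changed genes, the CD8 quartile comparison (7737 genes) recovered 81% of log2 changes of 1 and 49% of changes of 0.585, and the comparison of fates (8479 genes) 52% and 12%. The 38 genes and all lists were chosen with earlier results of these data known. Genes printed in full are, in each role group, the 3 (6 for effectors) with the most UMIs in gated SP cells, and at most 4 genes of each other list by the same count, which for the ligands gives Ifnz, Ifnab, Ifnk and Ifng. Some genes and a protein of the lists and the index are not reported here by name. Intervals and floors cover counting error only.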

Additional observations from a re-analysis of the deposited data

Results flagged for a closer look

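Of 171 groups of 4 to 10 mice examined for a value far from the rest, 9 had one by Dixon's criterion, which flags about 1 group in 20 by chance. WT unsorted mouse 5 was lowest of the 5 WT mice for Zbp1 in signaled DP-like cells (30.5 CPM) and for Bst2 in quartile 4 of the CD4 gate (16.6 CPM), and highest for Ddx60 in NKT-like cells (37.3 CPM). WT sorted mouse 1 was lowest for Samd9l in mature SP-like cells (109 CPM), signaled DP-like cells (40.7 CPM) and quartile 4 of the CD4 gate (109 CPM), samples that share cells. WT sorted mouse 3 was highest for Ifi27l2a in quiescent DP-like cells (98.6 CPM), WT unsorted mouse 4 for Parp14 in quartile 4 of the CD4 gate (157 CPM) and OT-I mouse 2 for Dtx3l in quartile 4 of the CD8 gate (161 CPM).

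In quartile 4 of the gate of their fate, Bst2 was at 40.6 CPM in OT-I mouse 2 and at 114 CPM in OT-II mouse 2, against 128 and 144 CPM in mouse 1 of each genotype, and Dtx3l was at 161 and 158 CPM against 66.9 and 108 CPM. The lanes of mouse 2 had medians of 3141 (OT-I) and 2121.5 (OT-II) UMIs per kept cell, against 7174 and 4215.5 in mouse 1, and those of WT unsorted mouse 5 had 1541 and 1490.5. The part of depth was not tested.

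The change from quartile 1 to quartile 4 in WT mice differed between gates for 7 genes, by a gate-by-quartile term (log2, CD4 gate minus CD8 gate): Usp18 by 0.979, Ifih1 by 1.402, Ifit1 by 0.910, Ifit3 by 1.519, Ifi27l2a by 0.486, Xaf1 by 0.652 and Irgm1 by 0.927. It differed between genotypes and WT mice of the same gate by a genotype-by-quartile term for Ifih1 (-1.735) and Isg15 (-0.827) in AND, Ifit1 (-1.158), Ifit3 (-1.876) and Ifi27l2a (-0.415) in OT-II, Isg20 (-2.824) and Ifit3 (-4.332, on few UMIs) in F5 and Xaf1 (1.132) in OT-I mice.

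An antibody to BST2, outside the panel of 111, had UMIs in the lanes of the third experiment, 13 at most in a lane. It was in no comparison.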

How the results depend on the processing

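Of 2096 recomputed log2 changes of called genes among the 18 printed in full, 0 changed sign, 1864 stayed past the threshold and 232 did not. Of those not called, 138 changed sign and 1 then passed, Gbp7 in NKT-like cells (-0.32, and 0.58 without batch correction). All 38 genes were called higher in mature SP-like than signaled DP-like cells without any 1 mouse (38 to 38). Leaving out 1 mouse gave 15 to 28 genes higher and 1 to 2 lower from quiescent to signaled DP-like, 1 to 9 lower in Treg-like and 29 to 33 in NKT-like cells, 36 to 37 higher in CD4 and 20 to 28 in CD8 quartiles, 11 to 16 higher by fate, 8 to 15 higher and 0 to 2 lower between WT gates, 0 to 1 lower in OT-I, 2 to 19 lower in AND against sorted and 5 to 20 lower and 0 to 1 higher against unsorted WT, and 20 to 33 and 14 to 33 lower in F5. The lowest counts came without WT unsorted mouse 4 (15 and 8), WT sorted mouse 3 (1), MHCII-/- mouse 2 (20), AND mouse 2 (2), either AND mouse (5) and F5 mouse 1 (20 and 14). Lone mice were assumed to vary like the rest.

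Without mouse as a block, 0 fell from quiescent to signaled, 17 rose in CD4 and 0 in CD8 quartiles, and 4 rose and 0 fell between WT gates. DESeq2 called 1 lower in Treg-like cells, 6 higher and 0 lower between WT gates, 2 for the gate difference, 1, 1, 0 and 0 for the AND, OT-II, F5 and OT-I differences, and 2, 6, 8 and 8 within OT-II, MHCII-/-, OT-I and WT CD8 quartiles. On total UMIs the counts were 2 in Treg-like cells, 17 in CD8 quartiles, 2 lower within AND, 2, 13 and 7 higher within OT-II, MHCII-/- and WT CD8 quartiles and 1 for the F5 difference. With no filter, 24 were lower in Treg-like cells and 6 in OT-I. With doublets kept, 9 were lower in Treg-like cells. Without batch correction, 1 fell from quiescent to signaled, 0 in Treg-like cells, and 3 rose and 3 fell in NKT-like cells. WT mice alone gave 14 in CD8 quartiles, and the comparison of fates gave 1 without the family and 0 within the third experiment. The cause was not tested. For changed settings and fits with a mouse left out, here and above, the share of all genes called is not given. A lower count of members there cannot be told from a general loss of calls.

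A replicate block gave 17 in place of 13 by fate. The numbers pair AND and F5 mice by experiment and the MHC and OT mice only by number. With 2 mice a genotype each family gives a single correlation of deviations. It was 0.141 in the Rag1, -0.025 in the MHC and 0.452 in the OT family. Thinned to 1000 UMIs, shares with any of the 38 genes were 96.3%, 52.7%, 91.4%, 41.3% and 75.1% (WT mature, WT signaled, WT CD8 quartile 4, F5, AND), and with 5 genes 33.6%, 3.41%, 29.8%, 23.6% and 6.43% (WT mature, WT signaled, WT CD4 and CD8 quartile 4, AND); with 8 genes at 1500 UMIs these were 22.4%, 2.04%, 19.0%, 13.2% and 3.23%. Treg-like cells at resolution 1 gave too few mice. Batch correction, WT-only and resolution settings were chosen after the data were seen.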

Other observations

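Other interferon-responsive genes, a wider list of 56, were also compared by fate. Of 41 tested, 6 were higher in quartile 4 of CD4-fated than of CD8-fated mice and 2 lower (edgeR, where 4.61% of all genes were called higher and 5.17% lower), with a median of 0.28 on the log2 scale. All 8 are named after their values were seen. Ifi44 (3.81, adjusted p = 0.0007827), Ly6a (2.93, adjusted p = 2.974e-05), which encodes Sca-1, the GTPase gene Iigp1 (2.44), Ifit1bl1 (1.40), Parp11 (1.21) and Ifit2 (0.93) were higher, and Epsti1 (-1.09, adjusted p = 0.001832) and Ms4a4c (-0.79, adjusted p = 0.0455) were lower. In the CD4 gate of AND mice 13 of 45 genes of this list were lower than in sorted WT mice and none higher (1.36% of all genes were lower), and 22 were lower and 1 higher than in unsorted ones (2.81% lower and 1.78% higher).

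CD4-gated cells of the CD8-fated MHCII-/- and OT-I mice were set against no other group above. Their sums did enter the fit of the CD4 gate used for genotypes. Summed levels of the 38 genes in these cells were 1653 and 1738 CPM in MHCII-/- and 2254 and 2023 CPM in OT-I mice. WT mice stood at 3684 to 4618 CPM in this gate. The cells were of other classes: CD8 SP-like clusters held 70.8% and 74.4% of these cells in MHCII-/- and 33.8% and 25.7% in OT-I mice, against 4.09% to 9.2% in WT mice, and mature SP-like clusters 1.45% and 1.53%, 23.9% and 24.1%, and 35.9% to 61.6%.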
